A study of Homo sapiens with 16 samples.

Results

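Cholesterol is built in human cells by a chain of enzymes whose genes are switched on together, and 8 genes of that system were described in HEK293 cells depleted of Gemin5. The 8 genes were HMGCS1, IDI1, FDFT1, SQLE, LSS and SC5D, which encode enzymes of cholesterol synthesis, and SREBF2 and INSIG1, which encode regulators of those enzymes. They were taken by symbol from 58302 Ensembl gene identifiers counted in 16 RNA-Seq libraries, and none of the 8 encodes a receptor or carrier that takes cholesterol up. HEK293 is an established line derived from human embryonic kidney. RNA of the cytoplasmic lysate (Input) and of the polysomes, pooled from fractions of a sucrose gradient (Polysome), was taken from control cells (Ctrl) and from cells given 100 nM of an siRNA against Gemin5 (siRNAG5), with 4 biological replicates in each of the 4 groups. An siRNA is a small RNA duplex used to have an mRNA of matching sequence cut and degraded, and Gemin5 is an RNA-binding protein that takes part in the assembly of spliceosomal particles and in translation. The sample labels call the Ctrl cells untreated while the protocol lists a control siRNA, so Ctrl is known here as cells without the Gemin5 siRNA. All samples were of the same cell line, and the polysomal fractions of a gradient were pooled, so light and heavy polysomes were not separated.

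HMG-CoA synthase, encoded by HMGCS1, joins acetyl units at the start of the mevalonate pathway, and IDI1 converts the resulting isoprenoid unit into its reactive isomer. FDFT1 (squalene synthase) commits the chain to sterols, SQLE oxidises squalene, LSS closes it into lanosterol, and SC5D introduces a double bond late in the route to cholesterol. SREBF2 encodes SREBP-2, a transcription factor held in the endoplasmic reticulum when sterols are plentiful and released to activate the genes of synthesis and uptake when they are scarce, and INSIG1 encodes a protein that helps to hold it there.

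SREBP-2 acts on promoters through the sterol regulatory element, often beside a CCAAT box bound by NF-Y, so the stretches upstream of the members that hold these letters are shown. RefSeq windows from 250 bases before to 50 bases after a gene's start (GRCh38.p14) matched 6 of the 8 members, HMGCS1, IDI1, LSS, SC5D, SREBF2 and INSIG1. In each line capitals mark a CCAAT box, read here as ATTGG on the strand of the gene, or the sterol regulatory element. All motif searches covered only the 250 bases before the start in each window. The search used TCACNCCAC for the sterol regulatory element and CCAAT for the CCAAT box, on both strands, and neither motif overlapped the other in these lines. Each sequence is written 5′ to 3′ on the strand of its gene and lies upstream of the annotated gene.
SREBF2, chr22:41832957-41833018, plus strand: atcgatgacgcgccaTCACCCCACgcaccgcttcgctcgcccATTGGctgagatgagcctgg
HMGCS1, chr5:43313548-43313582, minus strand: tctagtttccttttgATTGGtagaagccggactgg
IDI1, chr10:1049217-1049349, minus strand: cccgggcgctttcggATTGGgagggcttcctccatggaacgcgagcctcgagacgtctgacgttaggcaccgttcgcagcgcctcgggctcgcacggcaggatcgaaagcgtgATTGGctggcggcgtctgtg
LSS, chr21:46228905-46228939, minus strand: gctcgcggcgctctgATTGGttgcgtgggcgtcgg
INSIG1, chr7:155297693-155297727, plus strand: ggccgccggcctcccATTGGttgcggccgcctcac

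An exact match to TCACNCCAC, the pattern used for the sterol regulatory element, was found for SREBF2 alone, from 133 to 125 bases before its start. That was 1 of the 10 windows of the 6 members, and 0.883% of all 35116 windows held a match. Elements with other letters would be missed by this search. A CCAAT box was found in 8 of the 10, against 32% of all windows, and each of the 6 members had 1 or more such windows. HMGCS1 and IDI1 each held 2 of them, and the second of HMGCS1 and the one of SC5D lie inside the annotated gene and are not shown. The E-box CACGTG was found in 3 of the 10 windows, of INSIG1 and SC5D, and in 6.34% of all windows, and the GC box GGGCGG in 10 of the 10 and in 42.6% of all windows. A match is a description of letters, and no binding was measured.

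Each library held between 11145324 and 24511299 reads on genes, and every member passed the filter on low counts in each comparison. The thinnest member was LSS, with 55 to 260 reads per library, and counting error is largest for it. GEMIN5, the targeted gene, had a normalised count (CPM, scaled to a common library size) of 17.9 ± 2.32 (SD, n = 4) in Input Ctrl and 6.71 ± 0.528 in Input siRNAG5, and of 7.43 ± 1.56 and 2.64 ± 0.495 in Polysome, so the labels and the silencing went together. The 7 markers of HEK293 cells summed to 81.2 to 205 CPM over the 16 libraries and none was at 0 in any of them. The 13 liver markers summed to 77.9 to 160.4 CPM in the 4 Polysome Ctrl libraries and to at most 1.26 in any siRNAG5 library, and within Input Ctrl they ranged from 1.12 to 145 CPM, high in replicates 3 and 4. The 7 blood markers summed to 3.02 to 4.63 CPM in Polysome Ctrl, 0.329 to 0.783 in Polysome siRNAG5, 0.596 to 1.51 in Input Ctrl and 0.368 to 1.13 in Input siRNAG5. In Ctrl 1 and Ctrl 2 the liver markers summed to 2.58 and 1.12 CPM in Input and to 160.4 and 99.8 in Polysome. All samples were of the HEK293 line, and where the liver and blood reads came from was not tested. The Polysome libraries also divided across the treatments, with Ctrl 1, Ctrl 2, siRNAG5 1 and siRNAG5 4 on the low side and the other 4 on the high side of an axis that carried 55.0% of the variance within groups. That axis was computed over 14873 genes outside all lists used here.

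Per kilobase of the canonical transcript, the members spanned a wide range of levels. In Input Ctrl the mean level was 137 ± 4.53 CPM per kb for FDFT1, 53.9 ± 6.76 for IDI1, 45.2 ± 6.06 for INSIG1 and 27.8 ± 1.40 for SQLE (SD, n = 4). The lower members were HMGCS1 with 5.63 ± 0.764, SREBF2 with 3.94 ± 0.583, SC5D with 3.85 ± 0.334 and LSS with 1.97 ± 0.230 CPM per kb. Neighbours in this order whose libraries overlapped were IDI1 and INSIG1, and SREBF2 and SC5D. In Polysome siRNAG5 the order opened with IDI1 at 69.6 ± 9.49, FDFT1 at 65.4 ± 11.1 and INSIG1 at 53.7 ± 8.12 CPM per kb, each overlapping the next, and SREBF2 at 8.81 ± 1.80 stood above HMGCS1 at 4.48 ± 2.37, again with overlap. LSS was last in all 4 groups.

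**Figure D1:**
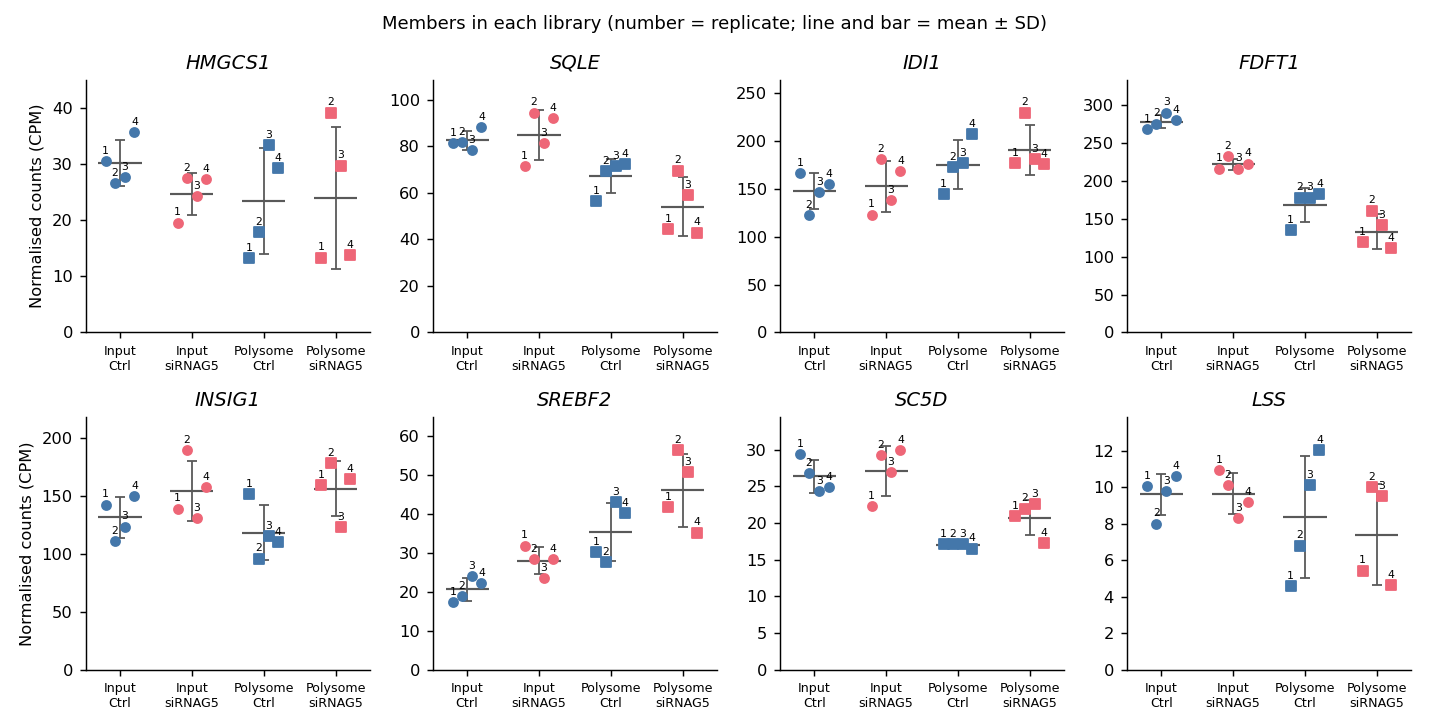
Normalised counts (CPM, y axis from 0) of the 8 members in each of the 16 libraries by group (x axis), with the replicate number beside each point and a line and bar for the mean ± SD of 4 libraries. FDFT1 in Input lay at 268 to 290.1 CPM in Ctrl and 216 to 232 in siRNAG5, and HMGCS1 and LSS spread most in Polysome.

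The comparison of siRNAG5 with Ctrl in Input asked which of these mRNAs changed in abundance on silencing. Among the 8 members 4 moved with an adjusted p under 0.05 and all stayed within a log2 fold change (log2 FC) of 0.5. FDFT1 and HMGCS1 were lower, and SREBF2 and INSIG1 were higher. With all 16 libraries in the edgeR fit none of the 4 passed, with adjusted p of 0.0733 for FDFT1, 0.0802 for SREBF2, 0.347 for INSIG1 and 0.57 for HMGCS1, and with DESeq2 INSIG1 did not (adjusted p = 0.0701). A call needed both an adjusted p under 0.05 and a change larger than 0.5 on the log2 scale, and by that rule 0 of 8 members were called lower, against 6.02% of the 14134 genes tested, and 0 of 8 higher, against 10.5%. By adjusted p alone, 2 of 8 were lower and 2 of 8 higher, where 19.1% and 17.9% of all genes were. The median log2 FC of the members was 0.06, beside 0.04 over all genes tested.

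FDFT1 (ENSG00000079459, chromosome 8), the squalene synthase, had Input CPM of 268, 276, 290.1 and 279.9 in Ctrl 1 to 4 and of 216, 232, 216 and 223 in siRNAG5 1 to 4. Every silenced library lay below every control library. Its log2 FC was -0.31 ± 0.06 (SE), with an adjusted p of 0.000142 by edgeR's quasi-likelihood test, and it was the member with the smallest spread, with a coefficient of variation of 3.31% and 3.43% in the 2 groups. Groups that did not overlap were found for 19.1% of all genes in this direction and 15.1% in the other, and FDFT1 was the sole member of either kind.

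HMGCS1 (ENSG00000112972, chr5:43287470-43313512, minus strand), at the entry of the pathway, had Input CPM of 30.5, 26.5, 27.6 and 35.7 in Ctrl and of 19.6, 27.5, 24.3 and 27.3 in siRNAG5. Silenced libraries were mostly lower, with overlap between the groups. Its log2 FC was -0.27 ± 0.11 with an adjusted p of 0.0463 (edgeR), and it passed 0.05 no longer when some single libraries were left out, with adjusted p up to 0.217 over the 8 such fits.

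SREBF2 (ENSG00000198911, chr22:41833105-41907306, plus strand), the transcription factor of the system, had Input CPM of 17.3, 19.0, 24.0 and 22.3 in Ctrl and of 31.9, 28.4, 23.5 and 28.5 in siRNAG5. The groups met only where Ctrl 3 passed siRNAG5 3. Its log2 FC was 0.45 ± 0.11 with an adjusted p of 0.00125 (edgeR), the largest change among the members and just inside the limit of 0.5. Without Input Ctrl 3 it was 0.53 and without Input siRNAG5 3 also 0.53, and SREBF2 was then called. The libraries Ctrl 3 and Ctrl 4, which held the liver reads, were also the higher Ctrl libraries for SREBF2. Without them the log2 FC was 0.63 (adjusted p = 0.000571, edgeR) and SREBF2 was called, and with them as the sole controls it was 0.29 (adjusted p = 0.0992). The part of the liver reads in this difference was not tested. SREBF2 overlaps MIR33A and SREBF2-AS1 in the annotation.

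INSIG1 (ENSG00000186480, chr7:155297776-155310235, plus strand), the retention factor of SREBP, had Input CPM of 142, 111, 123 and 149.6 in Ctrl and of 139, 189, 131 and 157 in siRNAG5. The groups overlapped widely, with siRNAG5 2 highest. Its log2 FC was 0.24 ± 0.09 with an adjusted p of 0.0369 (edgeR), which rose to 0.243 in the weakest of the fits that leave out 1 library.

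The other 4 enzymes differed little in Input. SQLE (ENSG00000104549, chromosome 8), which carries out the first oxygen-dependent step, had 81.2, 81.9, 78.4 and 88.2 CPM in Ctrl and 71.4, 94.4, 81.3 and 92.2 in siRNAG5, with a log2 FC of 0.06 ± 0.08. IDI1 (ENSG00000067064, chr10:1039152-1049119, minus strand) had 167, 123, 147 and 155 CPM in Ctrl and 123, 181, 138 and 169 in siRNAG5, with a log2 FC of 0.07 ± 0.09. In both the silenced libraries ran from below the lowest control, or level with it, to above the highest. SC5D (ENSG00000109929, chr11:121292681-121313410, plus strand) had 29.4, 26.8, 24.3 and 24.9 CPM in Ctrl and 22.3, 29.2, 27.0 and 29.9 in siRNAG5, with a log2 FC of 0.06 ± 0.10. LSS (ENSG00000160285, chr21:46188141-46228824, minus strand) had 8.0 to 10.6 CPM in Ctrl and 8.31 to 10.9 in siRNAG5, with a log2 FC of 0.02 ± 0.13. Adjusted p for these 4 lay between 0.616 and 0.927 (edgeR).

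**Figure D2:**
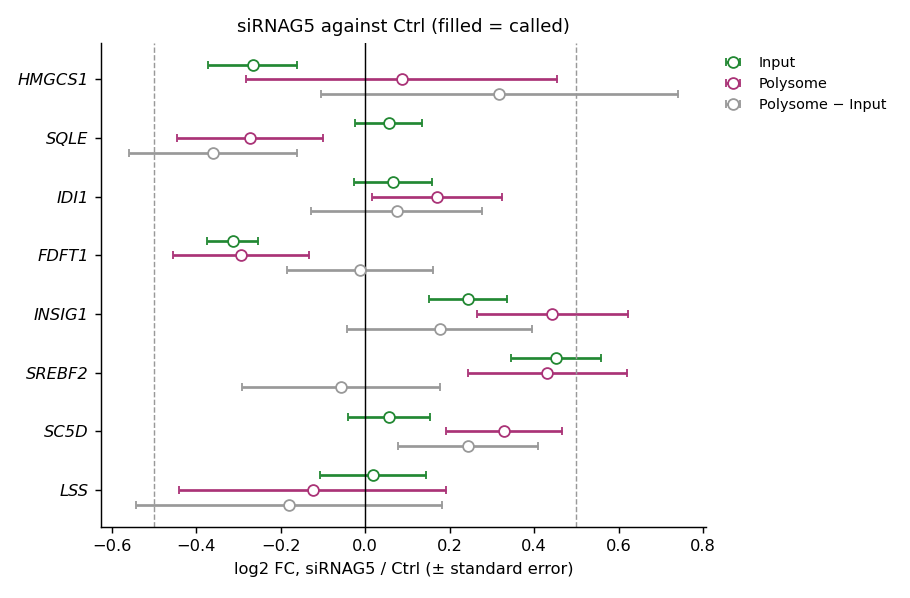
Log2 FC of siRNAG5 over Ctrl (x axis, bars ± standard error) for the 8 members (y axis) in Input, in Polysome and as Polysome change minus Input change, with dashed lines at -0.5 and 0.5 and open points for members not called. SREBF2 lies at 0.45 in Input and 0.43 in Polysome, and FDFT1 at -0.31 and -0.29.

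In Polysome the same comparison asked which mRNAs changed their share of the polysomal RNA. No member passed: 0 of 8 were called lower, against 4.00% of 14420 genes, and 0 of 8 higher, against 3.95%, with adjusted p from 0.135 to 0.909 (edgeR). At an unadjusted p under 0.05, 3 of 8 members were higher (INSIG1, SREBF2 and SC5D), against 14.4% of all genes, and 0 lower, against 13.3%. DESeq2 also called 0 members. The median log2 FC of the members was 0.13, beside 0.03 over all genes tested.

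SREBF2 had Polysome CPM of 30.3, 27.7, 43.0 and 40.3 in Ctrl 1 to 4 and of 41.8, 56.5, 50.9 and 35.3 in siRNAG5 1 to 4, a log2 FC of 0.43 ± 0.19 with an adjusted p of 0.162 (edgeR). INSIG1 had 151, 95.9, 115 and 110.1 CPM in Ctrl and 159, 178, 123 and 164 in siRNAG5, a log2 FC of 0.44 ± 0.18 with an adjusted p of 0.135. For both regulators 1 Ctrl library or more stood among the silenced ones. SC5D had 17.1, 17.2, 17.2 and 16.5 CPM in Ctrl and 21.0, 21.9, 22.6 and 17.3 in siRNAG5. All 4 silenced libraries were above all 4 controls for SC5D, siRNAG5 4 by little, and its log2 FC was 0.33 ± 0.14 with an adjusted p of 0.147 (edgeR). Groups that did not overlap were found for 8.29% of all genes in this direction and 10.0% in the other, and SC5D was the sole member of either kind.

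FDFT1 had Polysome CPM of 135, 178, 178 and 183 in Ctrl and of 119, 161, 142 and 111 in siRNAG5, a log2 FC of -0.29 ± 0.16. SQLE had 56.5, 69.4, 71.3 and 72.2 CPM in Ctrl and 44.5, 69.5, 58.9 and 42.8 in siRNAG5, a log2 FC of -0.27 ± 0.17. For these adjacent enzymes the silenced libraries reached lower than any control, and adjusted p were 0.26 and 0.328 (edgeR). IDI1 had 145, 172, 177 and 207 CPM in Ctrl and 176, 229, 181 and 176 in siRNAG5, a log2 FC of 0.17 ± 0.15. HMGCS1 and LSS varied so much within each group that their SE were 0.37 and 0.32, with log2 FC of 0.09 and -0.12.

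A fit of all 16 libraries compared the silencing change of Polysome with that of Input, to ask whether the mRNAs moved differently in the 2 fractions. For no member did it pass, with 0 of 8 called lower and 0 of 8 higher and adjusted p from 0.737 to 0.996 (edgeR). Over all 14958 genes 0.00% were called lower and 0.00% higher, while 701 and 388 had an unadjusted p under 0.05 and DESeq2 called 11 lower and 18 higher. The members' differences ran from -0.36 ± 0.20 for SQLE to 0.32 ± 0.42 for HMGCS1, on the log2 scale. FDFT1 (-0.01 ± 0.17) and SREBF2 (-0.06 ± 0.23) had the differences closest to 0.

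The spread of HMGCS1 and LSS in Polysome ran along the division of the Polysome libraries across treatments. HMGCS1 had 13.2, 17.8, 13.3 and 13.8 CPM in the low-side libraries Ctrl 1, Ctrl 2, siRNAG5 1 and siRNAG5 4. In the high-side libraries Ctrl 3, Ctrl 4, siRNAG5 2 and siRNAG5 3 it had 33.4, 29.2, 39.1 and 29.7 CPM. The sides did not overlap, and the mean of the high side was 2.26 times that of the low side. LSS had 4.57 to 6.79 CPM on the low side and 9.51 to 12.0 on the high side, a ratio of 1.94. IDI1 likewise did not overlap, by a narrow margin, with at most 176 CPM on the low side and at least 177 on the high side and a ratio of 1.19. The ratio was 1.41 for SREBF2, 1.28 for SQLE, 1.22 for FDFT1, 1.08 for SC5D and 0.922 for INSIG1, all with overlap. Among 14958 genes 13.5% had all low-side libraries below all high-side ones and 8.62% the reverse. The first 2 genes thus differed more between libraries of the same group than between siRNAG5 and Ctrl. What set the sides apart was not tested.

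**Figure D3:**
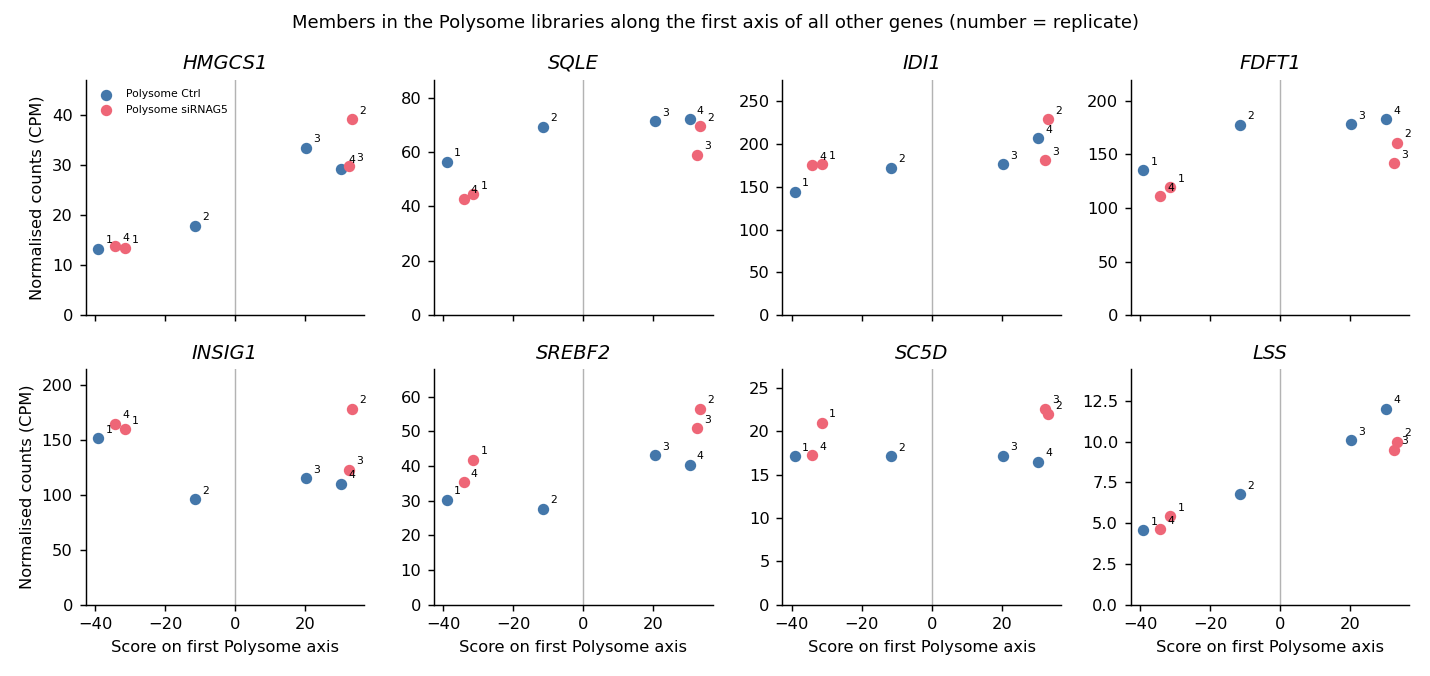
Normalised counts (CPM, y axis from 0) of the 8 members in the 8 Polysome libraries against each library's score on the first axis of the variation within groups over genes outside the lists (x axis, no unit), coloured by treatment and numbered by replicate. HMGCS1 lies at 13.2 to 17.8 CPM in the 4 libraries left of 0 and at 29.2 to 39.1 in the 4 right of it.

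With a term for the side, chosen after the data were seen, the standard errors of the Polysome changes were smaller for each of the 8 members, and 0 members were called. Over all genes the calls rose in that fit from 577 lower and 569 higher to 1487 and 1571. The sides were drawn from these same libraries, so the smaller errors and adjusted p below are no separate support for the changes. The share of all genes passing by adjusted p alone was not computed for it. The changes of SREBF2, INSIG1, SC5D, FDFT1 and SQLE stayed close to those above, while HMGCS1 went from 0.09 to 0.02 with an adjusted p of 0.909 (edgeR). In that fit the log2 FC was 0.43 for SREBF2 (adjusted p = 0.00377, edgeR), 0.45 for INSIG1 (adjusted p = 0.0211) and 0.32 for SC5D (adjusted p = 0.0357). For FDFT1 it was -0.31 (adjusted p = 0.031) and for SQLE -0.30 (adjusted p = 0.0478). Within the low side alone these were 0.45, 0.42, 0.19, -0.41 and -0.49 in the same order, and within the high side alone 0.43, 0.49, 0.47, -0.18 and -0.09. HMGCS1 was -0.17 on the low side and 0.20 on the high side, with adjusted p of 0.657 and 0.232.

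Polysome against Input, within each treatment, asked how the share of these mRNAs in polysomal RNA compared with that in the lysate. The libraries were scaled within the comparison, so a difference is relative to the average gene and is not the portion of an mRNA's molecules on polysomes. Reads that matched several places were left out of the counts, 4.88 to 6.04% in Input libraries and 21.2 to 42.4% in Polysome libraries. Their part in these differences was not tested. In Ctrl cells SREBF2 was called higher in Polysome and FDFT1 and SC5D lower, that is 1 of 8 higher, against 20.8% of 13666 genes, and 2 of 8 lower, against 18.8%. In siRNAG5 cells SREBF2 was again called higher and FDFT1 and SQLE lower, 1 of 8 against 23.9% of 14795 genes and 2 of 8 against 21.2%. These shares were near those of all genes.

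SREBF2 rose from 20.7 ± 3.05 CPM in Input to 35.3 ± 7.48 in Polysome in Ctrl cells, a log2 FC of 0.79 ± 0.16 with an adjusted p of 0.000663 (edgeR). In siRNAG5 cells it rose from 28.1 ± 3.45 to 46.1 ± 9.42 CPM, a log2 FC of 0.81 ± 0.16 with an adjusted p of 0.00141. In both treatments every Polysome library lay above every Input library. The share of all genes separated in this way between Polysome and Input was not computed. Without the low-side Polysome libraries the log2 FC of SREBF2 were 1.11 and 1.12.

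FDFT1 fell from 278 ± 9.21 to 169 ± 22.3 CPM in Ctrl cells, a log2 FC of -0.71 ± 0.12 with an adjusted p of 0.000216 (edgeR), and from 222 ± 7.61 to 133 ± 22.5 CPM in siRNAG5 cells, a log2 FC of -0.65 ± 0.13. Without the low-side libraries the values were -0.53 and -0.37, and the second was then under the limit of 0.5. SC5D fell from 26.4 ± 2.29 to 17.0 ± 0.323 CPM in Ctrl cells, a log2 FC of -0.62 ± 0.12 with an adjusted p of 0.000492 (edgeR). In siRNAG5 cells it had 27.1 ± 3.46 and 20.7 ± 2.38 CPM, a log2 FC of -0.30 ± 0.14 with an adjusted p of 0.0841. Whether SC5D differed between treatments is the difference tested above, 0.24 ± 0.17 with an adjusted p of 0.809, which did not pass.

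SQLE had 82.4 ± 4.13 CPM in Input and 67.3 ± 7.32 in Polysome in Ctrl cells, a log2 FC of -0.28 ± 0.11 with an adjusted p of 0.0526 (edgeR). In siRNAG5 cells it fell from 84.8 ± 10.6 to 53.9 ± 12.6 CPM, a log2 FC of -0.57 ± 0.17 with an adjusted p of 0.0148. That call was lost when low-side libraries were left out. The log2 FC was -0.48 without Polysome siRNAG5 1, -0.44 without Polysome siRNAG5 4 and -0.22 (adjusted p = 0.0688) without both. With every library kept it was -0.70 with 1 surrogate variable (adjusted p = 1.4e-07, edgeR) and -0.65 with all 16 libraries in the fit (adjusted p = 0.000667). IDI1 was the enzyme with more reads in Polysome, with log2 FC of 0.26 ± 0.13 in Ctrl (adjusted p = 0.13) and 0.40 ± 0.15 in siRNAG5 (adjusted p = 0.0396, edgeR, under the limit of 0.5), and 0.61 in siRNAG5 without the low-side libraries.

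HMGCS1, LSS and INSIG1 were not called in either treatment with all libraries. HMGCS1 turned with the libraries used, from a log2 FC of -0.35 ± 0.22 to 0.16 in Ctrl and from 0.05 ± 0.31 to 0.66 in siRNAG5 (adjusted p = 0.000154, edgeR) once the low-side libraries were left out. LSS turned likewise from -0.18 ± 0.23 to 0.29 and from -0.28 ± 0.24 to 0.20. With 1 surrogate variable in the fit LSS in siRNAG5 was at -0.52 (adjusted p = 0.00141, edgeR) and was called lower. INSIG1 stayed near 0, at -0.14 ± 0.15 and 0.10 ± 0.15.

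**Figure D4:**
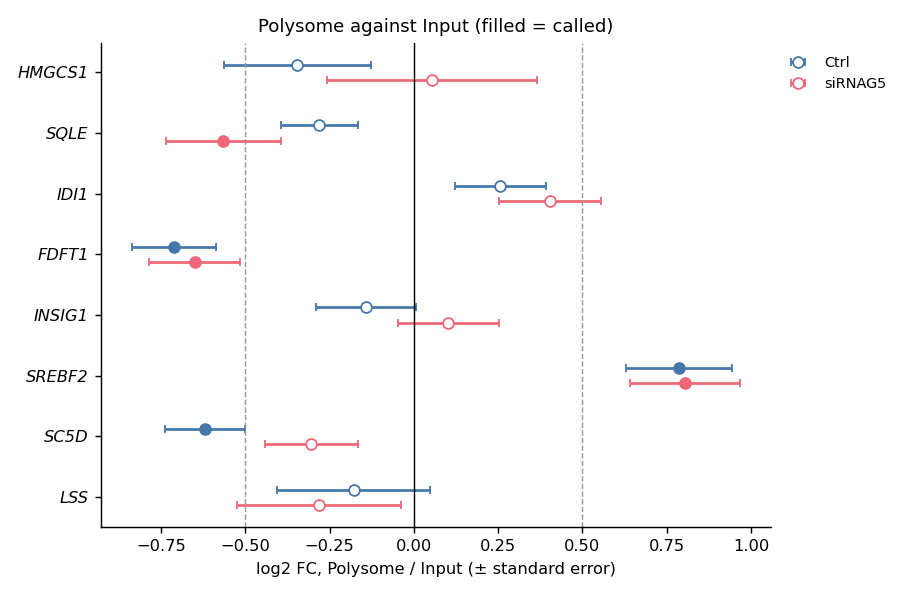
Log2 FC of Polysome over Input (x axis, bars ± standard error) for the 8 members (y axis) in Ctrl and in siRNAG5, with dashed lines at -0.5 and 0.5 and filled points for called members. SREBF2 lies at 0.79 and 0.81, FDFT1 at -0.71 and -0.65.

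Around the members, the other 15 enzymes of cholesterol synthesis moved further on silencing. In Input 8 of the 15 were called lower, against 6.02% of all genes, and 0 higher, against 10.5%. Their median log2 FC was -0.50, beside 0.04 over all genes, and the members had none called. Without Input Ctrl 3 and 4, which held the liver reads, 5 of the 15 were called lower, and with these as the sole controls 8 were. Over all genes 977 and 727 were called lower in these fits. The part of the liver reads in the counts of enzymes was not tested. Among the enzymes ACAT2, which makes the acetoacetyl-CoA used by HMGCS1, fell from 352 ± 14.5 to 208 ± 14.5 CPM (log2 FC -0.74 ± 0.06). CYP51A1, which follows LSS, fell from 2.65 ± 0.396 to 1.42 ± 0.359 CPM (log2 FC -0.88 ± 0.23), a low level at which counting error weighs.

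Several later enzymes of the sterol chain were also called lower in Input, while MSMO1 (-0.07 ± 0.10, adjusted p = 0.594, edgeR) and LBR (-0.19 ± 0.08, adjusted p = 0.0704) did not pass. The log2 FC of called enzymes were -0.55 ± 0.09 for TM7SF2 (sterol reductase), -0.79 ± 0.07 for NSDHL and -0.56 ± 0.08 for HSD17B7 (C4 demethylation), and -0.58 ± 0.07 for EBP (sterol isomerase). DHCR7, the reductase that follows SC5D, was at -0.50 ± 0.08. SC5D, which acts between EBP and DHCR7, was at 0.06 ± 0.10. Adjusted p for the 8 called enzymes were 0.00347 or less (edgeR).

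In Polysome 4 of the 15 were called lower, against 4.00% of all genes, and 0 higher, against 3.95%. Their median log2 FC was -0.36, beside 0.03 over all genes. With a term for the side of the axis 7 were called lower, as on the high side alone, and 3 on the low side alone. Over all genes 1487, 1451 and 806 were called lower in these fits. Among the 4 were ACAT2 (-0.70 ± 0.14), EBP (-0.88 ± 0.17) and DHCR7 (-0.61 ± 0.15), with adjusted p of 0.0156 to 0.0306 (edgeR). CYP51A1 had a Polysome log2 FC of 0.50 ± 0.43 (adjusted p = 0.477). The summed liver and blood markers were also lower in Polysome siRNAG5 than in Polysome Ctrl, and their part in these enzymes was not tested. The 12 liver markers tested here passed the filter through the Ctrl libraries, so their lower calls were fixed in advance, and 0 blood markers were tested. In Polysome against Input 7 of the 15 were called lower in Ctrl, against 18.8% of all genes, and 6 in siRNAG5, against 21.2%. DHCR7 was at -1.08 ± 0.13 and -1.14 ± 0.12, and 0 of the 15 were called higher, against 20.8% and 23.9%. Without the low-side libraries 8 were lower and 1 higher in each treatment. Over all genes 2584 were then called lower and 3808 higher in Ctrl, and 3604 and 4562 in siRNAG5.

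**Figure D5:**
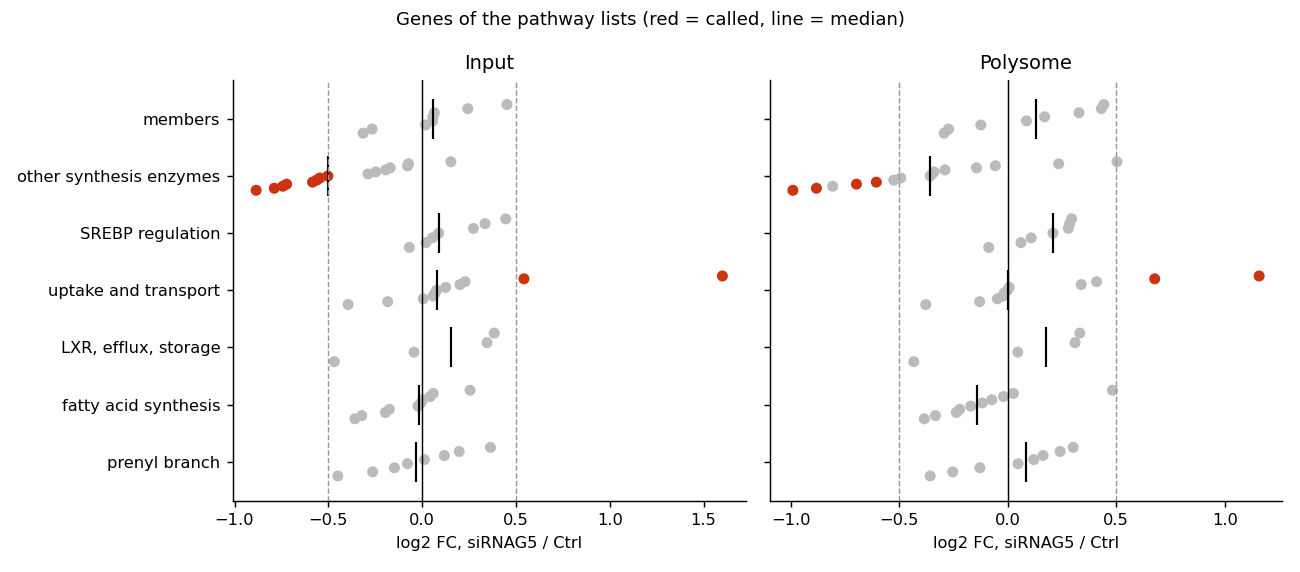
Log2 FC of siRNAG5 over Ctrl (x axis) of each tested gene in 7 lists (rows) for Input and Polysome, with called genes in red, a black line at each list's median and dashed lines at -0.5 and 0.5. In Input 8 of 15 other synthesis enzymes are called lower and 0 of 8 members are called.

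Of the 12 genes of uptake and intracellular transport, 11 were tested in Input. There 2 were called higher, against 10.5% of all genes, and 0 lower, against 6.02%. VLDLR, a receptor of lipoproteins, rose from 1.79 ± 0.472 to 5.31 ± 0.595 CPM in Input (log2 FC 1.60 ± 0.20) and from 1.62 ± 0.784 to 3.55 ± 0.465 in Polysome (1.16 ± 0.30, adjusted p = 0.0404, edgeR). NPC1, which exports cholesterol from lysosomes, was at 0.54 ± 0.11 in Input and -0.02 ± 0.18 in Polysome. STARD4, a sterol carrier, was at 0.20 ± 0.18 in Input and was called higher in Polysome at 0.68 ± 0.15 (adjusted p = 0.0242, edgeR). In Polysome 2 of 11 genes were called higher, against 3.95% of all genes, and 0 lower, against 4.00%.

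Polysome against Input moved some of these genes further, with NPC1 at -0.94 ± 0.16 in Ctrl and -1.47 ± 0.15 in siRNAG5 and STARD4 at 1.13 ± 0.17 and 1.65 ± 0.19. Of 11 tested, 4 were called lower and 1 higher in Ctrl, where 18.8% and 20.8% of all genes were, and 3 lower and 2 higher in siRNAG5, where 21.2% and 23.9% were. Without the low-side libraries 3 were lower and 2 higher in Ctrl, and 3 lower and 5 higher in siRNAG5. All genes called in these fits numbered 2584 lower and 3808 higher in Ctrl, and 3604 and 4562 in siRNAG5.

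With all libraries the 7 genes of SREBP processing and regulation had 0 called in Input and 0 in Polysome, with medians of 0.09 and 0.21. In Input without Ctrl 3 and 4, and in Polysome on the high side alone, 1 was called higher, where 1468 and 1226 genes were over all genes. SREBF1, the sister gene of SREBF2, went the other way in polysomes. It had log2 FC of Polysome over Input of -1.28 ± 0.23 in Ctrl and -1.38 ± 0.27 in siRNAG5, where SREBF2 had 0.79 and 0.81. With all libraries it was the sole gene of this list called in Ctrl, 1 of 7 lower against 18.8% of all genes and 0 higher against 20.8%. Without the low-side libraries 2 of the list were called lower and 1 higher in Ctrl, and 1 lower and 2 higher in siRNAG5. Over all genes 2584 were lower and 3808 higher in that Ctrl fit, and 3604 and 4562 in that siRNAG5 fit. In siRNAG5 with all libraries the proteases that release SREBP, MBTPS1 (0.53 ± 0.10) and MBTPS2 (0.51 ± 0.19), were called higher in Polysome. With SREBF1 lower, that was 2 of 7 higher and 1 of 7 lower, near the 23.9% and 21.2% of all genes. In Ctrl MBTPS1 was at 0.48 ± 0.13 (adjusted p = 0.00724, edgeR), just under the limit of 0.5.

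With all libraries neither silencing comparison called any of the 4 tested genes of LXR signalling, efflux and storage, the 10 of fatty acid synthesis or the 8 of the prenyl branch. In Polysome against Input 18.8% of all genes were called lower and 20.8% higher in Ctrl, and 21.2% and 23.9% in siRNAG5. Near these shares, 2 of the 10 fatty acid genes were called lower in each treatment, FASN (-1.07 ± 0.17 and -1.20 ± 0.20) and ACLY (-0.52 ± 0.16 and -0.77 ± 0.20). In siRNAG5 the efflux pump ABCG1 was called lower (-0.77 ± 0.30). Of the prenyl branch 0 were called in Ctrl, and in siRNAG5 NUS1 (0.82 ± 0.14) and PGGT1B (0.70 ± 0.17) were called higher and FNTB (-0.80 ± 0.22) lower. Without the low-side libraries all genes called numbered 2584 lower and 3808 higher in Ctrl, and 3604 and 4562 in siRNAG5. In that siRNAG5 fit 0 of the 4 genes of LXR signalling, efflux and storage were called, and of the prenyl branch 0 were lower and 2 higher. Of the fatty acid genes 1 was then lower in each treatment, with 2 higher in Ctrl and 3 in siRNAG5. The calls of ABCG1 and FNTB were thus not made without those libraries.

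The genes outside the lists whose pattern was most like the mean of the members over the 16 libraries, each centred on its fraction's mean, were NAMPT (Pearson r = 0.932), HOOK1 (0.926), PNN (0.923), THOC2 (0.915) and STAT3 (0.913). These are descriptions over libraries that share treatments, depth and the Polysome sides.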

How the data were processed

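RNA-Seq of polyadenylated RNA from 4 groups of 4 HEK293 samples was analysed. Per the labels and the study's methods, the authors prepared stranded libraries, used STAR 2.5.3a to align reads to GRCh38 and QoRTs to count them, and deposited the unnormalized counts as whole numbers. Reads on several places (4.88 to 6.04% in Input and 21.2 to 42.4% in Polysome), no gene (0.667 to 1.33%) or more than 1 gene (4.14 to 7.41%) were listed apart and left out. Names and coordinates are from GENCODE v44, and 57532 of 58302 identifiers were named.

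Each comparison was fitted over its groups with edgeR 4.0.16 (filterByExpr, TMM, quasi-likelihood test) in R 4.3.3, with Benjamini-Hochberg adjustment over all genes tested and a call required an adjusted p under 0.05 together with a change larger than 0.5 in log2 units. CPM were scaled by TMM over 16 libraries. Figures used Python 3.11.15. In simulated counts with 200 genes changed by a log2 FC of 1, edgeR recovered 191 in the Input design, 126 in Polysome and 95 for the difference. Genes were drawn independently there, without an axis shared by the Polysome libraries, and genes with few reads were not changed. The members changed by less than 1, so these numbers do not tell how often changes of their size are recovered.

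The members and lists were chosen with earlier results of these data known. All members are named. Of other lists, genes called on silencing are named, and for Polysome against Input the 2 with the largest change in each direction, and 4 genes that this rule picks are not reported here.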

Additional observations from a re-analysis of the deposited data

Results flagged for a closer look

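In 32 groups of 4 libraries, the 8 members in 4 groups each, the gap of the highest or lowest library to the next was compared with the range of the group, and 3 groups held a library that stood apart by Dixon's criterion, where chance gives about 1 in 20. IDI1 had 229.5 CPM in Polysome siRNAG5 2, above 176 to 181 in the other siRNAG5 libraries. FDFT1 had 135.2 CPM in Polysome Ctrl 1, below 178 to 183 in the other Ctrl libraries. SC5D had 16.5 CPM in Polysome Ctrl 4, below 17.1 to 17.2 in the others, a small gap within a narrow group. Polysome Ctrl 1 and siRNAG5 2 lie at opposite ends of the axis described above.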

How the results depend on the processing

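Depth limited LSS most, and the spread between Polysome libraries limited every Polysome result. The Polysome values of HMGCS1 and LSS changed sign with the libraries used, and the cause was not tested.

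In Input, upper-quartile factors put SREBF2 at 0.50 and called 1 member higher, with 1790 genes higher. Leaving out Input Ctrl 3 and 4 also called 1 member higher, with 1468 genes. With no minimum fold 2 members were lower and 2 higher, with 2695 and 2535 genes. Without Input Ctrl 3 and 4 SC5D was -0.0386, and without Ctrl 1 and 2 LSS was -0.0681. With 1 library left out the count of members higher ran from 0 to 1 (1 without Input Ctrl 3 or Input siRNAG5 3), IDI1 from -0.0199 to 0.154 and LSS from -0.0647 to 0.0866.

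In Polysome, genes called lower numbered 1101 with DESeq2 and 941 with no filter on low counts, lower and higher 1520 and 1077 with all 16 libraries in the fit, 1401 and 1565 with 1 surrogate variable, 1487 and 1571 with a term for the side and 1451 and 1226 on the high side alone. HMGCS1 was -0.19 with 1 surrogate variable and -0.17 on the low side alone. With 1 library left out, genes lower ran from 113 to 836 and higher from 76 to 687 (lowest without Polysome Ctrl 2), HMGCS1 from -0.24 to 0.31 and LSS from -0.316 to 0.0767. Members called stayed at 0 in these fits.

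For the difference between fractions, genes lower and higher numbered 11 and 18 with DESeq2, 29 and 28 with no filter, 297 and 78 with 1 surrogate variable and 282 and 69 with the side term, and members 0 in each. Of the 15 other synthesis enzymes 1 was called higher with the side term, and 0 in the main fit. FDFT1 was 0.0239 with DESeq2 and with RLE factors, 0.0348 with upper-quartile factors and 0.0305 with no filter. With 1 library left out, genes lower ran from 0 to 1 (1 without Polysome siRNAG5 4), FDFT1 from -0.0971 to 0.0656, HMGCS1 from -0.00581 to 0.543, IDI1 from -0.0177 to 0.164, LSS from -0.354 to 0.0328 and SREBF2 from -0.159 to 0.0528.

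For Polysome against Input in Ctrl, HMGCS1 was 0.16 and LSS 0.29 without the low-side libraries, and LSS ran from -0.386 to 0.0118 with 1 library left out. HMGCS1 was -0.55 and was called lower with 1 surrogate variable. In siRNAG5, members called higher numbered 2 with no minimum fold, with 3993 genes higher. Without the low-side libraries 0 members were lower and 3 higher, with 3604 genes lower and 4562 higher and LSS at 0.20. HMGCS1 was -0.0369 with all 16 libraries and -0.33 with 1 surrogate variable, and ran from -0.29 to 0.27 with 1 library left out. Members called lower ran from 1 to 2 (1 without Polysome siRNAG5 1 or siRNAG5 4).

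Per the study's methods, Input and Polysome RNA were taken from each lysate, so these fractions were paired by design. Deviations from group means of same-numbered Input and Polysome libraries correlated from -0.0739 to 0.186 in Ctrl and from -0.207 to 0.222 in siRNAG5. Such weak correlations cannot show whether libraries of a number share a lysate. Between same-numbered Ctrl and siRNAG5 libraries they ran from -0.0344 to 0.0687 in Input and from -0.53 to 0.48 in Polysome. With the replicate number as a block, genes called lower and higher were 847 and 1466 in Input and 558 and 444 in Polysome, and members called were 0 in both, with HMGCS1 in siRNAG5, Polysome against Input, at -0.0894. No member's call changed under the block.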
